A study of Mus musculus with 10 samples.

Results

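The genes examined here encode the subunits of the proteasome, the protease that degrades ubiquitin-tagged proteins. They were the rows of the gene count table whose symbol is Psma, Psmb, Psmc or Psmd followed by a number, without the 3 immunoproteasome genes Psmb8, Psmb9 and Psmb10. This rule found 36 of 24421 genes and used no measured value. They comprise 14 genes of the barrel-shaped core particle, 17 genes of the regulatory particle that caps it, 3 Psmd-named chaperones of its assembly, and Psma8 and Psmb11, core genes known from testis and thymus.

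RNA-seq was performed on CD71+Ter119+ erythroid precursors, called R2 cells, sorted from the bone marrow of transplanted mice. Lethally irradiated BoyJ recipients were given marrow carrying RosaCreERT2, a ubiquitous Cre that tamoxifen activates, and all were given tamoxifen straight after the transplant and examined 8 weeks later. The donor marrow was Ddx41+/+;Trp53+/+ (3 mice: 10, 11 and 12), Ddx41+/flox;Trp53+/+ (2 mice: 32 and 34), Ddx41+/+;Trp53+/- (3 mice: 22, 23 and 24) or Ddx41+/flox;Trp53+/- (2 mice: 46 and 47). The Ddx41+/flox marrow is written Ddx41+/- below, since Cre removes its floxed allele. Cre is not restricted to erythroid cells, Trp53+/- is a germline deletion, and host cells that survive irradiation can remain, so the cells sorted from a recipient need not all derive from the donor. Each library was 1 mouse and held 7866648 (mouse 34) to 20283930 counts (mouse 11), so values of mouse 34 carry the most counting error.

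The transcripts of the manipulated genes followed the labels. Ddx41 was at 25.1, 21.9 and 22.6 counts scaled to a common library size (counts per 1e+06 counts, CPM) in the Ddx41+/+;Trp53+/+ mice and at 13.8 and 16.5 CPM in the Ddx41+/-;Trp53+/+ mice. With Trp53+/- it was at 26.6, 22.9 and 23.2 CPM in Ddx41+/+ mice and at 12.5 and 15.7 CPM in Ddx41+/- mice, so the Ddx41 genotypes did not overlap. The log2 fold changes were -0.63 and -0.78 (edgeR adjusted p = 0.0887 and 0.177). Trp53 was at 57.4 to 68.1 CPM in the 5 Trp53+/+ mice and at 40.3 to 46.2 CPM in the 5 Trp53+/- mice. Of the erythroid markers, the band 3 gene Slc4a1 had a median of 27600 CPM and the heme synthesis gene Alas2 a median of 8030 CPM, whereas the adult globin rows were near 0, with at most 21 counts for Hba-a1. Whether globin RNA was depleted or reads of these near-identical copies were dropped is not given in the sources used here, so CPM are shares of counts that hold almost no globin. Neutrophil markers were also present, summing to 4499.9 to 7702.1 CPM over 7 genes with S100a9 the most abundant (median 1680 CPM). In bulk RNA a lower level of a gene in each cell and a smaller share of the cells that express it cannot be told apart.

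The core particle is a stack of rings, the outer ones built from alpha subunits that gate the entrance and the inner ones from beta subunits, of which Psmb5, Psmb6 and Psmb7 carry the active sites. The regulatory particle has a base, whose ATPase ring (Psmc genes) unfolds the substrate, and a lid that removes ubiquitin. When proteasome activity is limiting, the transcription factor Nfe2l1 is known to raise many subunit genes together through antioxidant response elements bound with a small Maf partner. Erythroid precursors depend on ubiquitin-mediated removal of proteins as they remodel into red cells.

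Genes of both the core and the regulatory particle were expressed in R2 cells. Compared per kilobase of transcript (CPM per kb), 34 of the 36 genes had mean levels between 21.3 CPM per kb for Psmd10 and 154.5 CPM per kb for Psmc3, a 7.24-fold range. Without the 3 assembly chaperones, of which Psmd10 is one, the lowest was Psmb5 at 40.6 CPM per kb. With the union of exons as the length instead, the range was 6.04-fold. These 34 genes lay between the 63.2 and the 93.9 percentile of mean CPM among the 11846 tested genes. The remaining pair stood apart. Psma8 had 2 to 19 counts in a library. Psmb11 had no count in any of the 10 libraries, which at 3 counts allows up to 0.146 to 0.381 CPM depending on the library, for counting error only. Psmb11 was therefore left out of the tests, in which the other 35 genes entered.

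Of the 7 alpha ring genes, Psma1 was the most abundant (132.3 ± 8.1 CPM per kb, SD, n = 10 mice) and Psma2 the least (40.6 ± 3.5), with a median of 47.2 over the 7 genes. The catalytic genes differed from each other in every mouse. Psmb5, the chymotrypsin-like subunit, averaged 40.6 CPM per kb, below the caspase-like subunit Psmb6 at 90.5 and the trypsin-like subunit Psmb7 at 109 CPM per kb. The other 4 beta genes lay between Psmb2 at 66.0 and Psmb4 at 104.8 CPM per kb.

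In the regulatory particle, the 6 ATPase genes ranged from Psmc6 at 57.2 to Psmc3 at 154.5 CPM per kb, with a median of 81.3. The ubiquitin receptor Psmd4 reached 119.7 CPM per kb, and the scaffolds Psmd2 and Psmd1, the other members of the base listed, averaged 93.3 and 73.2. The 8 lid genes lay lower, with a median of 58.7 CPM per kb between Psmd12 at 45.98 and Psmd13 at 91.5, and the deubiquitinase Psmd14 stood at 65.1. The assembly chaperones Psmd9, Psmd5 and Psmd10 were the 3 least abundant of the 34, at 36.02, 27.7 and 21.3 CPM per kb. This order depends on the length used: per kb of all exons Psmd10 stayed the lowest (20.5), but Psma3 (27.3) lay below Psmd5 and Psma2, and Psmd12 (33.05) and Psmb5 (34.3) lay below Psmd9. Of 35 neighbouring pairs in the order of means, only 5 kept their order in all 10 mice: Psmc3 above Psma1 at the top, and the steps from Psmd9 down to Psmd5, Psmd10, Psma8 and Psmb11 at the bottom. The neighbours between exchanged places in at least 1 mouse.

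**Figure D1:**
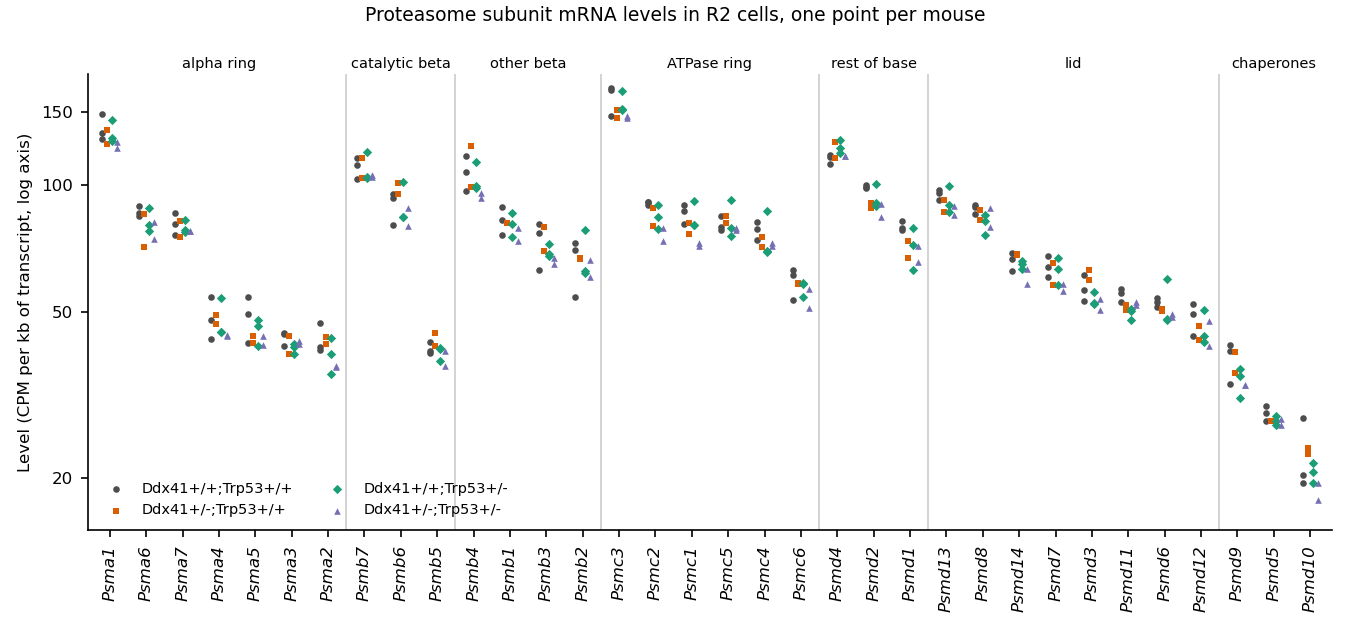
Levels of 34 proteasome subunit genes in CPM per kb of transcript (log axis), grouped by role, with 1 point per mouse and a color and symbol per genotype. Psmc3 is the highest and Psmd10 the lowest. Many genes separate some pair of genotypes without overlap, as counted in the text, and none was called. Psma8 and Psmb11 are below the axis.

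These levels carry limits of annotation. In GENCODE M21 (GRCm38, the build mm10 named in the submitters' notes), the 36 genes lie on 16 chromosomes, with 6 on chromosome 11, where Psmb6 lies 933.5 kb from Trp53. In all, 9 of them have over 10% of their 75-base stretches in common with another gene. Psmb5 shares 40% with Gm3375 and 1 other gene, Psma5 39.8% with Gm8394 and 1 other, and Psmb3 33.1% with AC114990.1 and 3 others. Psmb7 shares 24.1% with Nek6, whose exons overlap it on the other strand. How such reads were counted is not given in the sources used here, so the levels of these genes are uncertain.

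Mouse to mouse, subunit transcripts varied little. The median standard deviation within a genotype was 0.095 on the log2 scale over the 35 tested genes, against 0.19 over all tested genes. Leaving Psma8 aside (0.58), it ran from 0.041 for Psmd5 to 0.18 for Psmb2. More strongly expressed genes have less counting error, and the 34 genes lie in the upper part of the range of abundance.

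Summed over all 36 genes, the proteasome transcripts took up 0.362 to 0.420% of all counts. The Ddx41+/+;Trp53+/+ mice had sums of 4011.6, 4137.5 and 3820.3 CPM, a mean of 3990 ± 160 (SD, n = 3). The Ddx41+/-;Trp53+/+ mice had 3812.3 and 3878 CPM (3845 ± 46.5, n = 2), and the Ddx41+/+;Trp53+/- mice had 4091.7, 3659.6 and 3726.6 CPM (3826 ± 233, n = 3). The double heterozygous mice had the lowest mean, with 3569.1 and 3696.2 CPM (3633 ± 89.9, n = 2). Mouse 47 overlapped the Ddx41+/+;Trp53+/- mice, and both double heterozygous mice lay below the range of the 2 genotypes with Trp53+/+. B cell markers moved with the groups: their sums were 211.1 to 355.1 CPM in Ddx41+/+;Trp53+/+ mice, 351.7 to 502.3 in Ddx41+/-;Trp53+/+ mice, 370.3 to 452.8 in Ddx41+/+;Trp53+/- mice and 408.6 to 471 CPM in the double heterozygous mice, led by Cd74 (median 255 CPM). Macrophage markers summed to 294.4 to 562.5, 354 to 457.1, 236.9 to 326 and 376.1 to 474.6 CPM in the same order of genotypes, and erythroid markers to 43345.3 to 48009, 43501.6 to 44114.6, 45434 to 48411.8 and 42593.7 to 45171.3 CPM. The double heterozygous mice thus overlapped the Ddx41+/+;Trp53+/- mice in B cell markers, but lay above them in macrophage markers and below them in erythroid markers. The part of these cells in the levels of the subunit genes was not tested. The core sum was 0.734 (mouse 12) to 0.811 (mouse 32) of the regulatory sum per kb, and the genotype means of this ratio lay between 0.767 in Ddx41+/+;Trp53+/+ mice (SD 0.030) and 0.796 in Ddx41+/-;Trp53+/+ mice (SD 0.021), whose ratios of 0.811 and 0.781 overlapped those of the Ddx41+/+;Trp53+/+ mice (0.777, 0.791 and 0.734).

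**Figure D2:**
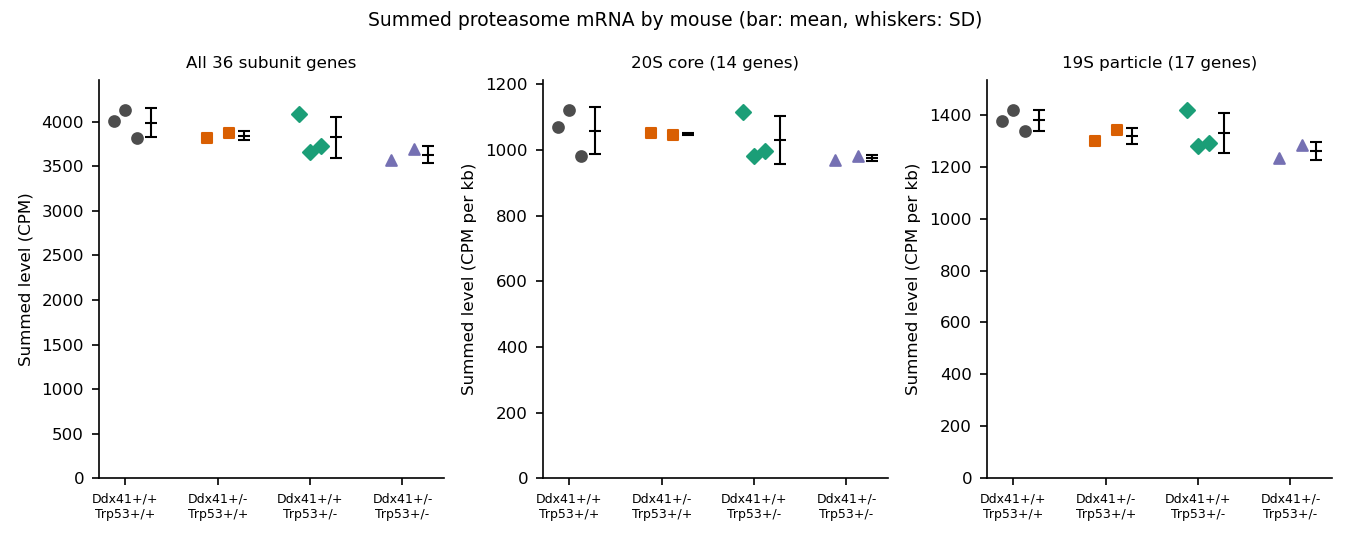
Summed levels by mouse and genotype of all 36 genes (CPM), of the 14 core genes and of the 17 regulatory particle genes (CPM per kb of transcript), with points for mice and bars and whiskers for the mean and SD (n = 2 or 3). The double heterozygous mice have the lowest mean in each panel, 3633 CPM against 3990 CPM in Ddx41+/+;Trp53+/+ mice in the first, and mouse 22 lies near the highest of the Ddx41+/+;Trp53+/+ mice.

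Single mice stood out across most of the genes at once. In mouse 11 (Ddx41+/+;Trp53+/+) only 3 of 35 genes lay below their own mean over the 10 mice, with a median deviation of 0.11 on the log2 scale, and in mouse 22 (Ddx41+/+;Trp53+/-) only 4 did, with a median of 0.11. Mice of the same genotype differed in this. Of the other Ddx41+/+;Trp53+/+ mice, mouse 10 had 9 of 35 genes below their mean (median deviation 0.048) and mouse 12 had 20, and of the other Ddx41+/+;Trp53+/- mice, mouse 23 had 31 and mouse 24 had 28. In the double heterozygous mice 46 and 47, 33 and 32 of 35 genes lay below their mean, with medians of -0.11 and -0.048. For comparison, 48.0 to 49.5% of all tested genes lay below their own mean in any mouse. Since the genes deviate together within a mouse, their number does not add up to independent evidence on a genotype. Mice 11 and 22 had no common extreme in markers of other cells: the sum of B cell markers was lowest in mouse 11 (211.1 CPM, against 502.3 in mouse 34) but 370.3 CPM in mouse 22, and the neutrophil sums were 4831.9 and 5503.4 CPM. The part of other cells in these deviations was not tested.

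**Figure D3:**
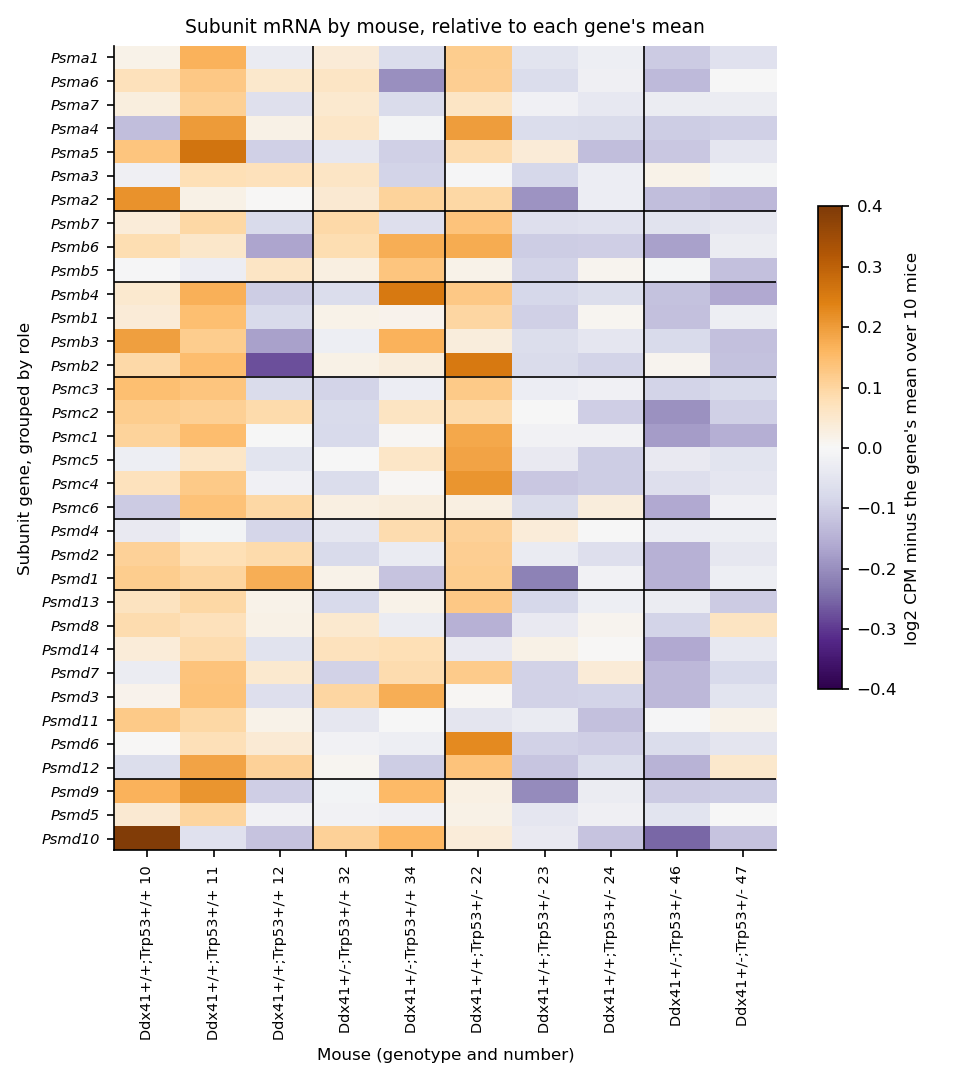
Heat map of log2 CPM of 34 subunit genes (rows, by role) in each mouse (columns, by genotype) minus the mean of that gene over the 10 mice. Columns 11 and 22 are mostly above the mean, and columns 23, 46 and 47 mostly below it, across all roles.

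The genotypes were compared with edgeR's quasi-likelihood test over all 11846 tested genes. A gene was called differentially expressed at a Benjamini-Hochberg adjusted p under 0.05 and a fold change over 1.5. The comparisons below share groups of mice, so that a group with high or low values enters several of them.

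The first comparison asked whether heterozygous loss of Ddx41, an RNA helicase gene mutated in myeloid malignancies, altered proteasome transcripts when Trp53 was intact. Of the 35 subunit genes, 24 were lower and 11 higher in Ddx41+/- mice, with a median log2 fold change of -0.039, against 0.0010 over all tested genes, of which 49.7% were lower. None of the 35 was called, with 0.54% of all tested genes called by edgeR, none reached an unadjusted p under 0.05 (9.64% of all tested genes did), and DESeq2 called none. All 7 alpha ring genes were on the lower side (median -0.052), as were 5 of 6 ATPase genes (median -0.10), while 2 of 3 catalytic genes and 3 of 4 other beta genes were on the higher side. Without mouse 11 the median was -0.0091, with 19 of 35 genes lower, without mouse 34 it was -0.022, and without mouse 12 and mouse 10 it was -0.078 and -0.062.

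Psmd2, the base scaffold that receives ubiquitin-like domains, had the smallest p. It was at 297, 292 and 293 CPM in Ddx41+/+ mice and at 262 and 269.5 CPM in Ddx41+/- mice. These groups did not overlap, and the log2 fold change was -0.15 (SE 0.074, edgeR adjusted p = 0.566). Psmd1, the other large scaffold of the base, was at 246.5, 244 and 256 CPM against 229.7 and 209 CPM, also without overlap (-0.18, SE 0.092, edgeR adjusted p = 0.573). Psmc3, the most abundant subunit per kb, was at 279, 276 and 239.7 CPM against 237 and 247.5 CPM, so that the groups overlapped (-0.13, SE 0.082, edgeR adjusted p = 0.671). In all, 6 of 35 genes were lower in every Ddx41+/- mouse than in any Ddx41+/+ mouse, against 12.1% of all tested genes, and Psmb6 alone was higher in every one, against 12.9%.

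With Trp53+/-, 32 of 35 subunit genes were lower and 3 higher in Ddx41+/- mice, and the median log2 fold change was -0.076, against -0.0050 over all tested genes, of which 51.2% were lower. None of the 35 was called, with 0.0422% of all tested genes called by edgeR, 1 had an unadjusted p under 0.05 (3.75% of all tested genes), and DESeq2 called none. All 6 ATPase genes and all 7 beta genes of the common core were on the lower side. These are the groups that differed without overlap in the macrophage and erythroid marker sums given above. This lean rested on mouse 22: without it the median was -0.024 and 23 of 35 genes were lower, whereas without mouse 23 the median was -0.12 and without mouse 46 it was -0.047. With unscaled library sizes the median was -0.038 with 27 of 35 genes lower, and the median over all genes was 0.032.

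Psmc1, an ATPase whose tail helps to open the core's gate, was the gene with an unadjusted p under 0.05. It was at 146, 128 and 128 CPM in the Ddx41+/+;Trp53+/- mice and at 114 and 116 CPM in the double heterozygous mice. These groups did not overlap, but the log2 fold change of -0.22 (SE 0.086, 95% interval -0.40 to -0.036) had an edgeR adjusted p of 1.0. Its sister ATPase Psmc2 was at 160.1, 150.4 and 141 CPM against 131 and 141 CPM, where the highest double heterozygous mouse just passed the lowest of the others (-0.14, SE 0.081, edgeR adjusted p = 1.0). Psma8 was at 6, 19 and 12 counts against 2 and 7 counts, a fitted log2 fold change of -1.68 (SE 0.80, edgeR adjusted p = 1.0) on counts too few to give a firm ratio. In all, 10 of 35 genes were lower in every double heterozygous mouse, against 10.8% of all tested genes, and 1, Psmd11, was higher in every one, against 9.23%.

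The difference between the Ddx41 effects with Trp53+/- and with Trp53+/+ was not called for any of the 35 genes, with 0.0675% of all tested genes called by edgeR. Its median was -0.053, with 22 genes on the lower side (51.5% of all tested genes) and 13 on the higher, and turned to 0.014 without mouse 22. It was -0.00053 without mouse 12, -0.0030 without mouse 46, -0.033 without mouse 10, -0.083 without mouse 11 and -0.088 without mouse 23. One gene, Psma8, had an unadjusted p under 0.05 (5.01% of all tested genes; edgeR adjusted p = 0.992), none did by DESeq2, and DESeq2 called none. The catalytic gene Psmb6 had the most negative value after Psma8, -0.23 (95% interval -0.55 to 0.10).

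Heterozygous loss of Trp53, the gene of the p53 protein, was compared with both alleles intact in Ddx41+/+ mice. There 31 of 35 subunit genes were lower and 4 higher in Trp53+/- mice, with a median log2 fold change of -0.051 against 0.00049 over all tested genes, of which 49.9% were lower. None of the 35 was called, with 0.912% of all tested genes called by edgeR, 1 had an unadjusted p under 0.05 (9.44% of all tested genes), and DESeq2 called none. All 7 alpha ring genes (median -0.077) and all 8 lid genes (median -0.072) were on the lower side. B cell marker sums did not overlap between these groups, at 370.3 to 452.8 CPM in Trp53+/- mice against 211.1 to 355.1 CPM. Their part in this lean was not tested. Without mouse 23 the median was -0.018 with 24 of 35 genes lower, without mouse 11 it was -0.024 with 22 lower, and without mouse 22 and mouse 12 it was -0.0999 with 33 lower and -0.086 with 32 lower. With unscaled library sizes it was -0.087, while the median over all genes was -0.034.

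Psmd11, a lid subunit that joins the lid to the base and core, had the smallest p. Like Trp53, Psmd11 lies on chromosome 11, and what this contributes was not tested. It was at 127, 124 and 118 CPM in Trp53+/+ mice and at 112, 113.5 and 106.5 CPM in Trp53+/- mice, with no overlap and a log2 fold change of -0.15 (SE 0.069, edgeR adjusted p = 0.519). Psmd1 was at 246, 195 and 225 CPM in the Trp53+/- mice, with mouse 22 within the Trp53+/+ range given above (-0.16, SE 0.081, edgeR adjusted p = 0.552). Psmd9, an assembly chaperone, was at 104.7, 108 and 87.0 CPM in Trp53+/+ mice and at 94.6, 80.8 and 91.2 CPM in Trp53+/- mice, which overlapped (-0.17, SE 0.093, edgeR adjusted p = 0.606). Only 3 of 35 genes were lower in every Trp53+/- mouse, against 6.53% of all tested genes, and 1, the ubiquitin receptor Psmd4, was higher in every one, against 7.58%.

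In Ddx41+/- mice, 33 of 35 subunit genes were lower and 2 higher with Trp53+/-, with a median log2 fold change of -0.073 against -0.0045 over all tested genes, of which 50.9% were lower. None of the 35 was called, with 0.169% of all tested genes called by edgeR, 1 had an unadjusted p under 0.05 (5.41% of all tested genes), and DESeq2 called none. This comparison has 2 mice on each side, so that groups separate easily: 18 of 35 genes were lower in both double heterozygous mice than in either other mouse, against 18.5% of all tested genes, and none was higher in both, against 18.8%. The medians without single mice ran from -0.092 to -0.064, but the genes on the lower side numbered 24 of 35 without mouse 32 and 27 without mouse 46. The 3 catalytic genes and the 4 other beta genes were all on the lower side (medians -0.14 and -0.13), and the alpha ring had a median of -0.020.

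Psmd3, a lid subunit whose gene also lies on chromosome 11 with Trp53, had the smallest p. It was at 128 and 134.6 CPM with Trp53+/+ and at 109 and 115 CPM with Trp53+/-, a log2 fold change of -0.23 (SE 0.092, edgeR adjusted p = 0.845). Psmb4, a non-catalytic beta subunit that takes part in core assembly, was at 118 and 147 CPM against 114 and 110.5 CPM (-0.24, SE 0.12, edgeR adjusted p = 0.927). Psma2 of the alpha ring was at 121.5 and 127 CPM against 108 and 107 CPM (-0.21, SE 0.10, edgeR adjusted p = 0.927). All 3 genes separated the 2 pairs of mice.

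**Figure D4:**
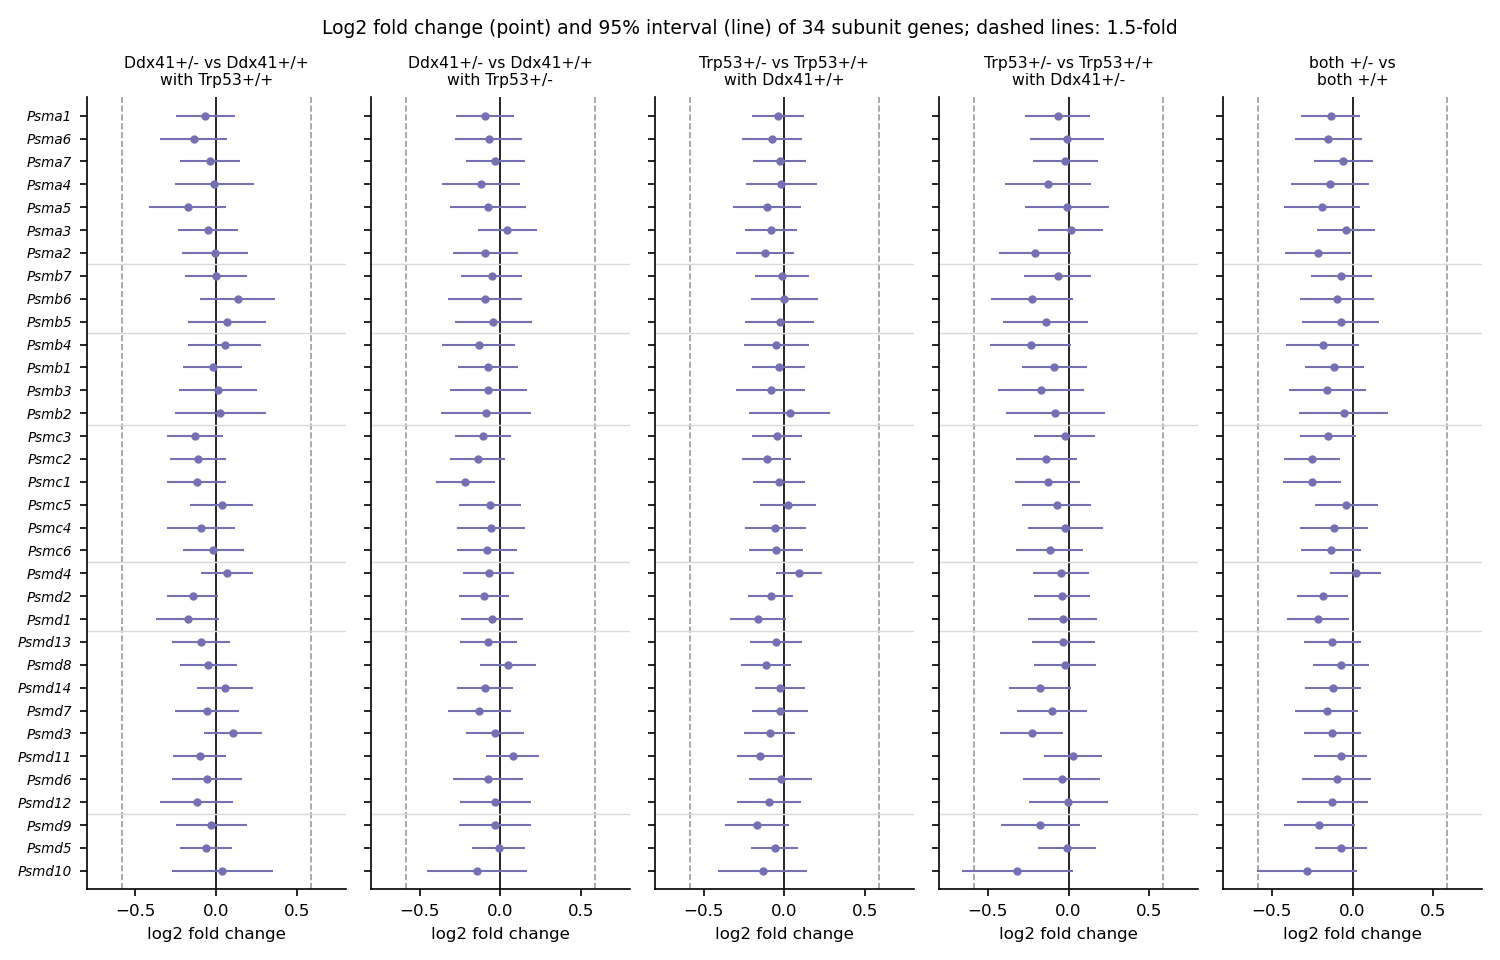
Log2 fold changes (points) with 95% intervals (lines) of 34 subunit genes, by role, in 5 comparisons of genotypes, with dashed lines at a fold change of 1.5. Most points lie slightly left of 0, most intervals include 0, and only Psmd10 has intervals that reach the dashed line, in the last 2 panels.

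The intervals limit how large an unseen difference could be. In the comparisons of Ddx41 with Trp53+/+, of Ddx41 with Trp53+/- and of Trp53 with Ddx41+/+, 34 of 35 genes had a 95% interval wholly within a 1.5-fold change in either direction, and with Ddx41+/- 33 of 35 did. The exceptions were Psma8 throughout and Psmd10 in the last. The median half-width of these unadjusted intervals was 0.17 to 0.21 on the log2 scale in the 4 comparisons.

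Psmd10, the chaperone also called gankyrin and the least abundant of the 34 genes per kb, was at 39.3, 28.7 and 27.5 CPM in Ddx41+/+;Trp53+/+ mice, where mouse 10 was well above the others. It was at 32.2 and 33.3 CPM in Ddx41+/-;Trp53+/+ mice and at 30.6, 29.1 and 27.5 CPM in Ddx41+/+;Trp53+/- mice. In the double heterozygous mice it was at 25.0 and 27.5 CPM, the lowest pair.

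The catalytic genes were not called in any comparison. Psmb5 was at 30.7, 30.3 and 32.2 CPM in Ddx41+/+;Trp53+/+ mice and at 31.4 and 33.8 CPM in Ddx41+/-;Trp53+/+ mice. With Trp53+/- it was at 31.2, 29.0 and 31.0 CPM in Ddx41+/+ mice and at 30.7 and 28.3 CPM in the double heterozygous mice. The whole range of Psmb5 was thus 28.3 to 33.8 CPM. The Ddx41+/-;Trp53+/+ mice lay above both genotypes with Trp53+/- and overlapped the Ddx41+/+;Trp53+/+ mice. Psmb6 was at 76.1, 74.7 and 64.1 CPM, then 76.2 and 81.0, then 81.3, 67.1 and 67.2, then 63.7 and 70.4 CPM in the same order of genotypes. Psmb7 was at 129.5, 135 and 120.0 CPM, then 135 and 121, then 139, 121 and 121, then 122 and 123 CPM. The edgeR adjusted p of these 3 genes was 0.772 or more in each of the 4 comparisons.

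Over both genotypes of the other gene, an additive model compared each genotype once. For Ddx41, 32 of 35 genes were lower (median -0.051, with 49.9% of all tested genes lower) and none was called, with 0.11% of all tested genes called by edgeR and 4 of 35 at an unadjusted p under 0.05 (8.98% of all tested genes). These were the ATPases Psmc1, Psmc2 and Psmc3 and the scaffold Psmd2, at log2 fold changes of -0.17, -0.13, -0.12 and -0.12 and edgeR adjusted p of 0.421, 0.527, 0.548 and 0.490. For Trp53, 33 of 35 were lower (median -0.061, with 50.7% of all tested genes lower) and none was called, with 0.287% of all tested genes called by edgeR. The 4 at an unadjusted p under 0.05 (11.2% of all tested genes) were Psma2, Psmc2, Psmd3 and Psmd9, with edgeR adjusted p of 0.356 to 0.413. DESeq2 called none in either. Without mouse 11 the medians were -0.022 for Ddx41 (25 of 35 lower) and -0.033 for Trp53 (30 lower), and for Ddx41 the median was -0.026 without mouse 22 and -0.032 without mouse 46. Leaving out single mice, the count at an unadjusted p under 0.05 ran from 1 to 5 for Ddx41 and from 1 to 8 for Trp53.

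The widest separation in genotype, double heterozygous against Ddx41+/+;Trp53+/+ mice, was added after the data had been seen. B cell marker sums did not overlap between these groups, at 408.6 to 471 CPM in double heterozygous mice against 211.1 to 355.1 CPM. Their part in the differences below was not tested. All but Psmd4 of the 35 genes were lower, with a median log2 fold change of -0.13 against -0.0034 over all tested genes, of which 50.6% were lower. None of the 35 was called, with 1.11% of all tested genes called by edgeR, 5 had an unadjusted p under 0.05 (11.6% of all tested genes), and DESeq2 called none. The lower side held 16 of 35 genes in both double heterozygous mice, against 14.3% of all tested genes, and none was higher in both, against 14%. The median was -0.073 without mouse 11 and -0.17 without mouse 12. The count at an unadjusted p under 0.05 was 0 without mouse 46 and 10 without mouse 12.

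The 5 genes at an unadjusted p under 0.05, named for this value, were Psmc1, Psmc2, Psmd1, Psmd2 and Psma2, of which 4 belong to the base. Psmc2 was at 163, 163 and 160.2 CPM in Ddx41+/+;Trp53+/+ mice against 131 and 141 CPM in the double heterozygous mice and 140.6 to 160.1 CPM in the mice heterozygous for 1 of the genes. Its log2 fold change was -0.25 (SE 0.081, 95% interval -0.42 to -0.080, edgeR adjusted p = 0.185). Psmc1 was at 139, 143 and 129 CPM against 114 and 116 CPM (-0.25, SE 0.086, edgeR adjusted p = 0.218). Psmd2 was at 297, 292 and 293 CPM against 249 and 268 CPM (-0.19, SE 0.074, edgeR adjusted p = 0.311). For Psmd1 and Psma2 the values were -0.22 and -0.21, with edgeR adjusted p of 0.351 and 0.382.

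The promoters of these genes were inspected for sequence they share, in RefSeq windows of 300 bases (250 before and 50 after the start; GRCm38.p6), which 29 of the 36 genes had. The letters CCGGAAG, the core of sites for ETS transcription factors, stood on either strand in 10 of 29 subunit promoters (34.5%) and in 9.93% of the 27025 genes with a window. Here and below, shares of all windows were not limited to the 11846 tested genes, and shares among tested genes were not computed. Among the 10 were Psmc1, Psmc2, Psmd2 and Psmd11, shown here because they had the smallest p in a comparison above. Psmd3 and Psma8, of smallest p for Trp53 with Ddx41+/- and for the difference between the Ddx41 effects, were not among the 10. The matching letters are in capitals, as CTTCCGG where the match is on the other strand.

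Psmc1: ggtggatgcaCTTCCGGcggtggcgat
Psmc2: cgcggagctaCTTCCGGtggggaagag
Psmd2: ccgcagggcgCTTCCGGtctggaggac
Psmd11: gagggcgggtCTTCCGGgtgtgtgttt

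These stretches lie on the plus strand at chr12:100110164-100110190 (Psmc1), chr5:21786713-21786739 (Psmc2), chr16:20651616-20651642 (Psmd2) and chr11:80428594-80428620 (Psmd11). Their matches begin 28, 24, 26 and 11 bases before the annotated start. Psmc2 has a further match that begins 84 bases before another annotated start (chr5:21785181-21785207). That match lies before the start of Psmc2 in GENCODE M21 (chr5:21785283), and the Psmc2 stretch shown above lies after this start. The 10 genes with the letters had a median log2 fold change of -0.11 for Ddx41 with Trp53+/+, against -0.021 in the 18 tested genes whose window lacks them. For Trp53 with Ddx41+/- the order was the other way, at -0.040 and -0.0998, and in the double heterozygous mice both medians were -0.13.

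The core of the antioxidant response element, TGACNNNGC on either strand, stood in 5 of 29 subunit promoters (17.2%) and in 14% of all windows. The genes were the catalytic Psmb5 and Psmb6, Psmc6, Psmd12 and Psmd9. The matches in the catalytic genes are shown because Nfe2l1 acts through this element.

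Psmb5: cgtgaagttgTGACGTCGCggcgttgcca
Psmb6: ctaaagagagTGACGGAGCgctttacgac

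They lie at chr14:54618024-54618052 on the minus strand (Psmb5) and at chr11:70525338-70525366 on the plus strand (Psmb6), and begin 47 and 9 bases before the start. The letters CCAAT stood in 41.4% of the subunit promoters and 41.1% of all, the GATA letters AGATAA in 6.9% and 12.7%, and TGACGTCA in none of the 29 and in 2.03% of all. The site of nuclear respiratory factor 1 stood in the promoter of Psma2 alone (3.45%) and in 1.07% of all. A match describes letters and not binding.

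The immunoproteasome genes encode catalytic subunits that replace the common ones in immune cells and after interferon. Per kb, Psmb8 had 17.3 to 38.1% of the level of its counterpart Psmb5 in the 10 mice (median 27.9%), Psmb9 had 5.95 to 16.1% of Psmb6 (median 9.53%), and Psmb10 had 5.03 to 9.1% of Psmb7 (median 7.24%). Psmb8 was at 18.9, 11.2 and 19.1 CPM in Ddx41+/+;Trp53+/+ mice, at 21.9 and 19.8 in Ddx41+/-;Trp53+/+ mice, at 15.5, 23.7 and 18.6 in Ddx41+/+;Trp53+/- mice and at 22.3 and 16.4 CPM in the double heterozygous mice. Mouse 11 had the lowest Psmb8 and the lowest Psmb9 (7.53 CPM, against 18.3 CPM in mouse 23), and it also had the lowest sum of B cell markers, whose part in this was not tested. Psmb9 was higher in both Ddx41+/-;Trp53+/+ mice (14.7 and 14.2 CPM) than in the Ddx41+/+;Trp53+/+ mice (7.53 to 11.7 CPM), at a log2 fold change of 0.53 (SE 0.26, edgeR adjusted p = 0.547). Among Trp53+/- mice Psmb9 was at 11.7, 18.3 and 8.6 CPM with Ddx41+/+ and at 11.4 and 10.3 CPM with Ddx41+/-, which overlapped. Psmb10 was at 7.90 to 13.9 CPM. None of the 3 was called in any comparison, and Psmb9 shares 10.8% of its stretches with Tap1, which overlaps it on the other strand.

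**Figure D5:**
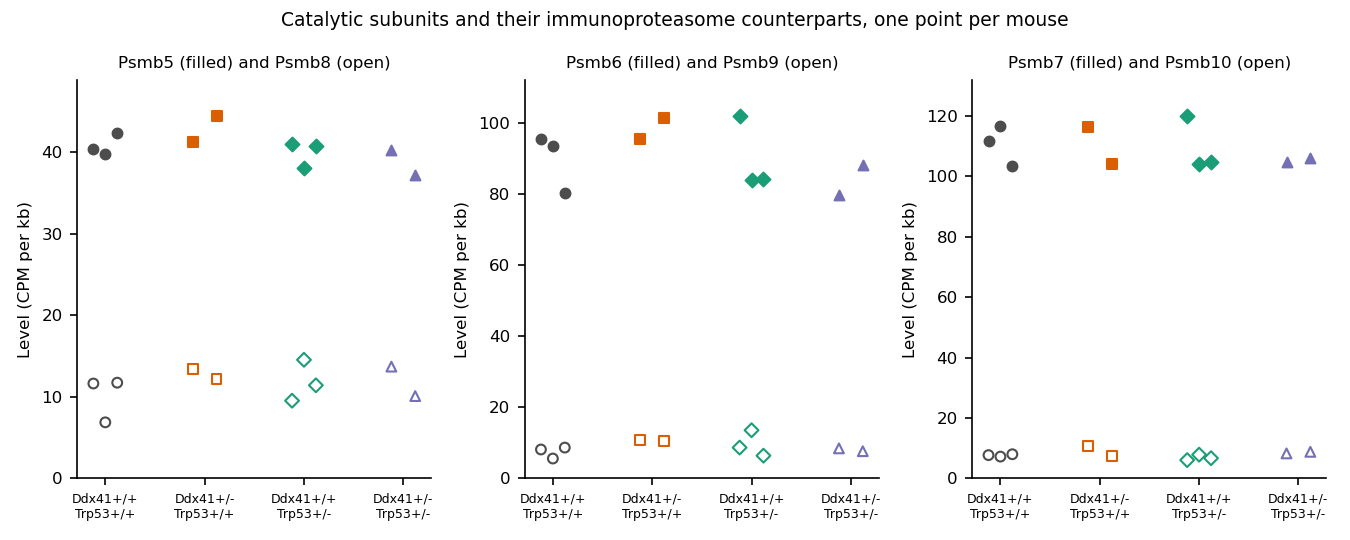
Levels in CPM per kb of transcript of the catalytic genes Psmb5, Psmb6 and Psmb7 (filled) and of their immunoproteasome counterparts Psmb8, Psmb9 and Psmb10 (open), with 1 point per mouse, by genotype. The open points lie below the filled ones in every mouse, at 38.1% of their level or less.

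Of the other genes that serve the proteasome, 38 of 41 listed were in the table under the names searched, and all 38 were tested. Among them, 18 of 38 were higher and 20 lower for Ddx41 with Trp53+/+ (median -0.0017), and 19 and 19 for Trp53 with Ddx41+/+ (median 0.0056). With Trp53+/- 25 of 38 were lower in Ddx41+/- mice (median -0.049, with 51.2% of all tested genes lower), and 23 of 38 were lower for Trp53 with Ddx41+/- (median -0.028, with 50.9% of all tested genes lower). One of the 38 was called for Ddx41 with Trp53+/+ (background 0.54%) and none in the other 3 of these comparisons, by edgeR and by DESeq2. In the additive model each tool called 1 of the 38 for Ddx41 (background 0.11%), which was Maff by DESeq2, and none for Trp53. At an unadjusted p under 0.05 there were 3 of 38 for Ddx41 with Trp53+/+ (9.64% of all tested genes), 1 for Ddx41 with Trp53+/- (3.75%), 2 for Trp53 with Ddx41+/+ (9.44%) and 0 for Trp53 with Ddx41+/- (5.41%). The additive model gave 7 of 38 for Ddx41 (8.98% of all tested genes) and 3 for Trp53 (11.2%).

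The gene called for Ddx41 with Trp53+/+, by both tools, was Maff, a small Maf protein that partners with factors such as Nfe2l1. It rose from 1.95, 1.17 and 2.08 CPM in Ddx41+/+;Trp53+/+ mice to 5.60 and 3.94 CPM in Ddx41+/-;Trp53+/+ mice, a log2 fold change of 1.496 (SE 0.33, edgeR adjusted p = 0.0493). It was at 2.70, 3.34 and 2.39 CPM in Ddx41+/+;Trp53+/- mice and at 5.05 and 6.17 CPM in the double heterozygous mice. All 4 Ddx41+/- mice thus lay above all 6 Ddx41+/+ mice, on 24 to 110 counts a library, a separation not counted over all genes. With Trp53+/- the difference between the Ddx41 genotypes was 1.00 (SE 0.31, edgeR adjusted p = 1.0), and the difference between these Ddx41 effects was -0.50 (95% interval -1.46 to 0.46). The call with Trp53+/+ was at the edge of the threshold: it was lost in 12 of 18 other settings, among them the removal of any mouse but mouse 12, with adjusted p from 0.00182 to 0.513. Double heterozygous mice differed from Ddx41+/+;Trp53+/+ mice by 1.71 (SE 0.31, edgeR adjusted p = 0.0124). This call was lost in 3 of 18 settings: without mouse 46, without mouse 47 and with only these 2 genotypes fitted (0.05). Over the 10 mice Maff averaged 3.4 CPM, and the other small Maf genes listed, Mafg and Mafk, averaged 87.0 and 285.8 CPM. Mafg and Mafk were not called in either of these comparisons.

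Nfe2l1 itself was at 89.3, 90 and 101.7 CPM in Ddx41+/+;Trp53+/+ mice, 82.9 and 95.3 in Ddx41+/-;Trp53+/+ mice, 101.4, 93.3 and 99.7 in Ddx41+/+;Trp53+/- mice and 92.9 and 94.4 CPM in the double heterozygous mice. These ranges overlapped, and its edgeR adjusted p was 0.85 or more in each comparison of single genotypes. Pomp, the chaperone that matures the core, was at 40.2 to 49.7 CPM across the 10 mice, with log2 fold changes between -0.087 and 0.010 in those comparisons.

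The activators that cap the core in place of the regulatory particle were unequal in level. Psme1 and Psme2, which form the interferon-inducible activator, averaged 60.7 and 27.5 CPM, and Psme2 shares 51.7% of its stretches with its copy Psme2b. Psme2 was at 22.2, 28.2 and 27.8 CPM in Ddx41+/+;Trp53+/+ mice and 28.7 and 31.5 in Ddx41+/-;Trp53+/+ mice (0.20, SE 0.13, edgeR adjusted p = 0.673). With Trp53+/- it was at 24.8, 26.4 and 24.9 CPM in Ddx41+/+ mice and at 30.9 and 29.9 CPM in Ddx41+/- mice (0.26, SE 0.13, edgeR adjusted p = 1.0). All 4 Ddx41+/- mice thus lay above all 6 Ddx41+/+ mice in Psme2, by little (28.7 against 28.2 CPM at the nearest). The share of all tested genes that separate in this way was not computed. Neither Psme1 nor Psme2 was called in any comparison. Psme3, which forms the nuclear activator and is named here for its level, was at 1017 to 1164 CPM, or 419 CPM per kb, above every subunit gene. Its fold change was not called in any comparison.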

How the data were processed

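The authors deposited raw counts per gene symbol for 10 libraries (poly(A) RNA, HiSeq2500). The submitters' notes name FastQC 0.11.7, HISAT2 2.0.5, featureCounts 1.5.2 and mm10. The annotation and strand setting of the counting are not given in the sources used here. Mice 35 and 45, named as removed by the authors, were not analysed here. Mice are the replicates, and no batch is given in the labels. Replicate libraries differed beyond sampling noise (chi-square per degree of freedom 6.27 to 15.9).

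Differences were tested by edgeR 4.0.16 under R 4.3.3 (filterByExpr, which removed 12575 genes, TMM scaling, 1 mean per genotype over all 10 libraries, two-sided quasi-likelihood tests, Benjamini-Hochberg adjustment over the 11846 tested genes). The 8 comparisons were made. Alternatives were DESeq2 1.42.0, other scalings and filters, only the genotypes compared, other thresholds and each mouse left out. The code was tested on simulated data. CPM used TMM-scaled totals over the tested genes. CPM per kb used the median length of GENCODE M21 basic protein-coding transcripts, and the 75-base stretches were compared on both strands. Promoters are from RefSeq. Deviations by mouse used log2 CPM with a prior count of 2.

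The genes and lists were chosen with earlier results of these data known. Values by mouse are given for Psmb5, Psmb6, Psmb7, any called gene, the 3 subunit genes of smallest p in each of the 4 comparisons of single genotypes, the genes of highest and lowest level, and 7 related genes (some as a range); others were picked once their values had been seen. The level of 1 related gene is not reported here.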

Additional observations from a re-analysis of the deposited data

How the results depend on the processing

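No subunit gene was called in any of the 8 comparisons under other scalings, filters, DESeq2 or with any single mouse left out, nor in the 5 comparisons of single groups fitted with only the genotypes compared. With an unadjusted p under 0.05 the counts were 1 for Ddx41 with Trp53+/-, 1 for Trp53 with Ddx41+/+, 1 for Trp53 with Ddx41+/-, 1 for the difference between the Ddx41 effects, 4 and 4 in the additive model for Ddx41 and Trp53, 5 for the double heterozygous mice and 0 for Ddx41 with Trp53+/+. Leaving out each mouse in turn, the median log2 fold change ranged from -0.0776 to -0.00912 for Ddx41 with Trp53+/+, from -0.118 to -0.0237 with Trp53+/-, from -0.0999 to -0.0183 for Trp53 with Ddx41+/+, from -0.0922 to -0.0635 with Ddx41+/-, from -0.0882 to 0.0141 for the difference, from -0.0746 to -0.0223 and from -0.089 to -0.033 in the additive model for Ddx41 and Trp53, and from -0.166 to -0.0725 for the double heterozygous mice. The summed level ranged from 3901 to 4078, 3817 to 3858, 3706 to 3915 and 3591 to 3687 CPM in the 4 genotypes, and was 3897 CPM in Ddx41+/-;Trp53+/+ mice with unscaled totals over the tested genes (3895 CPM with unscaled totals over all genes). Where leaving out a mouse leaves 1 in a genotype, that mouse is assumed to vary like the others. With unscaled library sizes the additive median for Ddx41 was -0.0257. Precision is limited by 2 or 3 mice a genotype. No paired analysis was made, because the labels give no pairing between mice of different genotypes.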
